A study of Danio rerio with 17 samples.

Results

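Histone modifiers and chromatin remodelers were followed in sorted cranial neural crest cells of zebrafish that lacked prdm3 or prdm16. The chromatin genes were all genes whose symbol begins with a family name of this machinery. The names were kmt, kdm, setd, nsd, ezh, eed, suz12, jarid2, ehmt, suv39, suv420, hdac, sirt, kat, chd, smarc, arid, brd, baz, ino80, phf, cbx, asxl, bptf, atrx, tet and mbd. They found 62 of the 4169 genes listed in either of the authors' 2 RNA tables. The prdm3 table held 38 of them and the prdm16 table held 31, with 7 in both.

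Chromatin modifiers add or remove chemical groups on histone tails, and readers with chromodomains, bromodomains or PHD fingers bind those groups. Remodelers use ATP to slide, eject or exchange nucleosomes, and Polycomb complexes hold developmental genes in a repressed state. Neural crest cells are sensitive to this machinery, and human CHD7 and KMT2D are known for syndromes with craniofacial defects. Prdm3 and Prdm16 are themselves PR-domain zinc finger proteins that act on chromatin. The roles given for single genes are those known for the mouse and human counterparts.

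RNA came from sox10:GFP positive cells sorted at 48 hours post fertilization from pools of dissociated embryos that were wild type, prdm3-/- or prdm16-/-. The sox10 reporter marks neural crest and its derivatives, and also the otic vesicle and glia. The labels name neither the mutant alleles nor the number of embryos in a pool, and all groups share the reporter. The series holds 17 samples, 9 for RNA, with 3 libraries per genotype, and 8 for ATAC, which are not used here. The prdm3 comparison used wild type replicates 2 and 3 and 3 mutant libraries, and the prdm16 comparison used 3 wild type and 2 mutant libraries, so both share wild type libraries. By their labels, wild type replicates 1 and 2 belong to the prdm3 line and replicate 3 to the prdm16 line, and they were used as 1 wild type group in both comparisons. Thus 1 of the 2 controls of prdm3-/- is labelled for prdm16, and 2 of the 3 controls of prdm16-/- are labelled for prdm3. Replicate 3 of prdm16-/- is not analysed here. Wild type replicate 1, which entered the prdm16 comparison alone, stood apart from the other wild type libraries. The genes mecom (the formal name of prdm3) and prdm16 are listed in neither table, so the genotypes were not checked against the RNA.

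Values are FPKM, a level per transcript length and sequencing depth, and the depth of the libraries is unknown. Differences are on the log2(FPKM + 1) scale, mutant minus wild type, with standard errors (SE), and a call means p below 0.05. Nothing states that the libraries are separate clutches, so p-values measure only the spread between these libraries. In sorted pools, fewer cells of a kind and less RNA per cell cannot be told apart. The authors' tables hold only genes past a threshold, which was an unadjusted p below 0.05 for prdm3 and q below 0.05 for prdm16. Every listed gene therefore passed, in all 1520 and 2990 rows the mutant and wild type values do not overlap, and the differences of the chromatin genes are given as a description.

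Over all 11242 genes tested, 13.5% were listed in the prdm3 comparison, 12.7% as higher and 0.783% as lower, and 0.0267% had q below 0.05. Of 201 gene IDs with such a family name in the gene names table, 38 or 18.9% were listed for prdm3. In the prdm16 comparison 28.1% of 10623 tested genes were listed, 0.734% as higher and 27.4% as lower. There, 30 of the 201 IDs or 14.9% were listed, and baz1a was listed under an ID that the names table does not pair with it. The names table includes genes that were not tested, so the shares do not have the same denominator and the differences between them were not tested.

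In prdm3-/- cells, 36 of the 38 listed chromatin genes were higher than wild type and 2 were lower. The split of 94.7% higher stood beside 94.2% for all listed genes. It dropped to 14 of 38 higher when the libraries were scaled to the listed genes. That scaling brought the median difference of all listed genes to 0.01, and how many of those stayed higher was not counted. The 38 chromatin genes covered histone methyltransferases, Polycomb subunits, remodelers and TET enzymes. None had q below 0.05, as q ran from 0.239 to 0.364 in the authors' deposited table. In prdm16-/- cells, 27 of 31 were lower, beside 97.4% of all listed rows, and 21 of these were listed at 0 in both mutant libraries (67.7% of the 31, beside 84.9% of all listed rows). The other 4, nsd1a, phf3, phf12a and phf14, were higher. None of the 21 histone demethylase genes named kdm in the names table was listed in either comparison, and their values are not held in the tables.

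**Figure D1:**
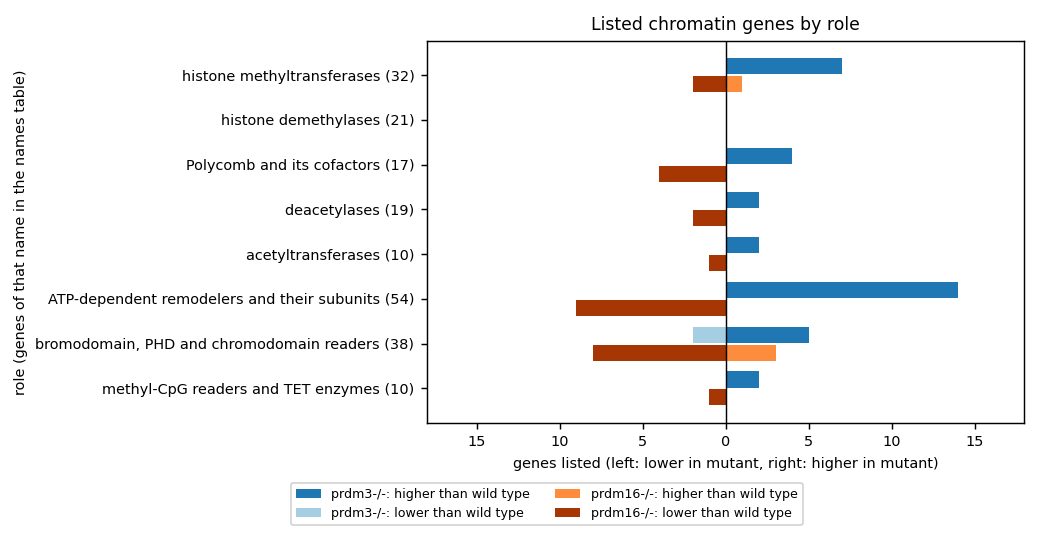
Number of listed chromatin genes (x axis) in each role (y axis, with the number of gene IDs of that role in the names table in brackets), drawn to the right where the mutant level was higher and to the left where it was lower. Bars for prdm3-/- lie mostly to the right and bars for prdm16-/- mostly to the left, and the demethylases have none. After scaling to the listed genes, 14 of the 38 prdm3 genes stayed on the right, and the median of all listed genes moved to 0.01.

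The direction in prdm3-/- depends on the scale of the libraries. The median difference was 0.62 over all listed genes and 0.58 over the chromatin genes. Scaling divided each library by its median over the listed genes above 0 in every library, which were 1487 of the 1520. This centres a set chosen for differing. The median of all listed genes moved to 0.01 and that of the chromatin genes to -0.16. Then 14 of 38 chromatin genes were higher in prdm3-/-, and 22 turned from higher to lower. Since the median of all listed genes is brought near 0, genes of any kind can turn. How many of all listed genes turned was not counted. On this scale 13 of the 38 had p below 0.05 (34.2%), beside 21.9% of all listed genes. Of these 13, 10 were calls in the reversed direction and 3 (kat5b, cbx1a and cbx3b) kept their direction. The scaling moved the lower genes cbx1a and cbx3b further from 0, so these could not turn. The chromatin genes were expressed at a median of 10.1 FPKM in wild type, and all listed genes at 3.61 FPKM.

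Among histone methyltransferases, 7 of the 32 genes of that role in the names table were listed as higher in prdm3-/-, beside 12.7% of all genes tested. Their differences ran from 0.32 to 0.85, and 1 of the 7 stayed higher after scaling to the listed genes. Trimethylation of histone H3 lysine 36 depends on setd2, which stood at 9.72 and 10.2 FPKM in wild type and at 16.0, 16.0 and 17.0 FPKM in prdm3-/-. The mutant libraries lay close together, and their mean was 1.64-fold that of wild type. As in every listed row, the mutant and wild type values did not overlap. The difference of 0.66 (SE 0.04) became -0.05 after scaling. The authors' deposited table gives setd2 the smallest p of the 38, 0.000569, and q = 0.239.

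The other listed lysine 36 enzyme, nsd1a, stood at 9.55 and 8.31 FPKM in wild type and at 11.5, 12.0 and 11.5 FPKM in prdm3-/-. This was a smaller step of 1.31-fold, with a difference of 0.35 (SE 0.07). In limma without wild type replicate 3, which leaves 1 wild type library assumed to vary like the mutants, the difference was 0.26, with no call. The histone H3 lysine 9 methyltransferase gene setdb1a stood at 3.75 and 3.63 FPKM in wild type and at 7.01, 6.84 and 8.55 FPKM in prdm3-/-. It had the largest difference of the 7, 0.85 (SE 0.12), and remained higher after scaling, at 0.20, with no call.

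The remaining 4 methyltransferases belong to the KMT2 family, which methylates histone H3 lysine 4 at promoters and enhancers. The gene kmt2a stood at 8.64 and 9.15 FPKM in wild type and at 13.1, 14.9 and 14.4 FPKM in prdm3-/-. The enhancer enzyme kmt2cb stood at 12.3 and 12.4 FPKM in wild type and at 19.0, 17.0 and 16.8 FPKM in prdm3-/-. Both were higher, by 0.61 (SE 0.07) and 0.48 (SE 0.07), and both were lower after scaling, at -0.10 and -0.25. The other KMT2 genes, kmt2d and kmt2bb, had differences of 0.32 to 0.44.

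The 4 listed Polycomb genes, of 17 in the names table, were all higher in prdm3-/-, beside 94.2% of all listed genes. After scaling their differences ran from 0.01, for jarid2b, to 0.20, and none had p below 0.05. A chromodomain gene of Polycomb repressive complex PRC1, cbx2, stood at 5.97 and 5.84 FPKM in wild type and at 9.49, 11.6 and 12.2 FPKM in prdm3-/-. The mutant mean was 1.88-fold that of wild type replicates 2 and 3, with a difference of 0.80 (SE 0.13). The wild type library left out of this comparison, replicate 1, stood at 15.5 FPKM, above every prdm3-/- library, and adding it brought the difference to 0.38 (SE 0.43), with no call.

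The PRC2 complex, which methylates lysine 27, was represented by suz12a, a core subunit, and jarid2b, a cofactor. The level of jarid2b was 14.1 and 13.9 FPKM in wild type and 24.0, 26.2 and 22.5 FPKM in prdm3-/-. The level of suz12a was 2.40 and 3.46 FPKM in wild type and 6.13, 6.89 and 4.72 FPKM in prdm3-/-. The wild type libraries of suz12a differed more from each other than those of jarid2b, and its SE was wider, 0.23 against 0.08. The genes jarid2a, ezh2 and asxl2 were not listed for prdm3, and reads shared by close paralogs such as jarid2a and jarid2b may be split between them.

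Of 19 deacetylase genes, hdac1 and sirt1 were listed. The class I deacetylase gene hdac1 stood at 24.8 and 20.4 FPKM in wild type and at 33.2, 31.8 and 36.6 FPKM in prdm3-/-. The NAD-dependent deacetylase gene sirt1 stood at 5.19 and 5.50 FPKM in wild type and at 6.46, 7.74 and 8.34 FPKM in prdm3-/-. These differences of 0.57 (SE 0.13) and 0.42 (SE 0.13) turned negative after scaling, at -0.18 and -0.25. In limma with a single wild type library sirt1 had no call, at differences of 0.38 without replicate 2 and 0.45 without replicate 3.

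Among 10 acetyltransferase genes, kat5b, the catalytic subunit of the TIP60 complex, stood at 2.21 and 2.62 FPKM in wild type and at 5.07, 5.04 and 5.64 FPKM in prdm3-/-. It was 1 of 3 genes of the 38 whose p stayed below 0.05 in the same direction after scaling, with a difference of 0.87 (SE 0.09) before and 0.28 after. The others were the lower genes cbx1a and cbx3b, which this scaling moved further from 0 and could not turn. A subunit of the ATAC acetyltransferase complex, kat14, was low in wild type, at 0.489 and 0.279 FPKM, and stood at 1.41, 1.54 and 1.05 FPKM in prdm3-/-.

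Remodelers, as grouped by symbol, were the largest role in the names table, with 54 genes. Of these, 14 were listed for prdm3, beside 13.5% of all genes tested, which is another denominator. All 14 were higher, by 0.20 to 0.96, beside 94.2% of all listed genes. After scaling, smarcd1 and ino80da alone stayed higher, both with no call. Then 7 of the 14 had p below 0.05, all of them lower, beside 21.9% of all listed genes at p below 0.05. Of the SWI/SNF (BAF) complex, smarcd1, smarca4a, smarcc1a, smarcd3b and arid1aa were listed. The accessory subunit gene smarcd1 stood at 15.2 and 15.9 FPKM in wild type and at 32.7, 29.2 and 32.3 FPKM in prdm3-/-. The mutant mean was 2.02-fold that of wild type, and the difference of 0.96 (SE 0.07) became 0.22 after scaling.

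The BAF ATPase gene smarca4a (Brg1) had a far smaller step, from 37.7 and 37.7 FPKM in wild type to 43.5, 45.2 and 44.8 FPKM in prdm3-/-. Its wild type values were nearly equal to each other. The call was lost in limma on the listed rows, with the replicate block and in each fit that left out a library, and the difference of 0.23 (SE 0.02) became -0.52 after scaling. The DNA-binding subunit gene arid1aa stood at 25.3 and 29.3 FPKM in wild type and at 38.9, 39.3 and 39.5 FPKM in prdm3-/-, with the 3 mutant libraries nearly equal.

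Of the CHD helicases, chd7, chd1, chd4b and chd8 were listed for prdm3. The gene chd7, which acts at neural crest enhancers in human cells, stood at 29.8 and 34.8 FPKM in wild type and at 48.1, 50.9 and 50.6 FPKM in prdm3-/-. That was 1.54-fold in the means, a difference of 0.61 (SE 0.09) that became -0.14 after scaling. The smallest difference of all 36 higher genes was that of chd8, 0.20 (SE 0.05). In limma without wild type replicate 3, which leaves a single wild type library, ino80b had a difference of 0.38, with no call, against 0.48 before. The remaining genes were the ISWI ATPase gene smarca5, the ribosomal DNA silencing subunit gene baz2a, the INO80 subunit genes ino80b and ino80da, and arid3b. Their differences ran from 0.38 to 0.70. The remodelers were grouped by symbol, and arid3b is counted for its name, not as a known remodeler subunit.

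Readers divided in direction, with 5 of 38 genes higher and 2 lower in prdm3-/-, and 3 of these 7 higher after scaling. Over all genes tested, 12.7% were listed as higher and 0.783% as lower. The BET bromodomain gene brd3a, whose product binds acetylated histones, and brd8, for a TIP60 complex subunit, were among the higher genes. The level of brd3a was 18.6 and 21.3 FPKM in wild type and 33.3, 42.4 and 46.3 FPKM in prdm3-/-. The mutant libraries of brd3a spread widely, with an SD of 6.67 FPKM, and its difference of 0.98 (SE 0.19) was the largest of the 38. After scaling it was 0.23, with no call.

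The 3 listed genes of heterochromatin protein HP1, which binds methylated lysine 9, differed in direction as deposited, while all 3 were lower after scaling, cbx5 at -0.30. The abundant cbx5 stood at 82.9 and 80.4 FPKM in wild type and at 120, 109 and 111 FPKM in prdm3-/-, while cbx1a stood at 2.48 and 2.49 FPKM and at 0.653, 1.38 and 0.732 FPKM. The level of cbx3b was 3.15 and 3.14 FPKM in wild type and 1.81, 1.78 and 2.45 FPKM in prdm3-/-. The last 2 were the only chromatin genes listed lower for prdm3, with differences of -0.88 (SE 0.21) and -0.47 (SE 0.13), and scaling moved them to -1.38 and -1.04. The wild type values of both genes were nearly equal, and in limma with a single wild type library cbx3b kept a difference of -0.47, with no call. With wild type replicate 1 added, which stood at 1.98 FPKM and so within the prdm3-/- values, the difference of cbx3b was -0.31. With a pseudocount of 0.1 that of cbx1a was -1.40.

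Of the TET dioxygenases, which oxidise methylated cytosine, tet2 and tet3 were listed higher in prdm3-/-. The level of tet2 was 12.0 and 9.78 FPKM in wild type and 20.9, 20.6 and 19.8 FPKM in prdm3-/-. The level of tet3 was 13.2 and 15.1 FPKM in wild type and 21.3, 25.4 and 26.1 FPKM in prdm3-/-. Their differences of 0.86 (SE 0.11) and 0.74 (SE 0.13) became 0.13 and 0.00 after scaling. No mbd gene was listed for prdm3.

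**Figure D2:**
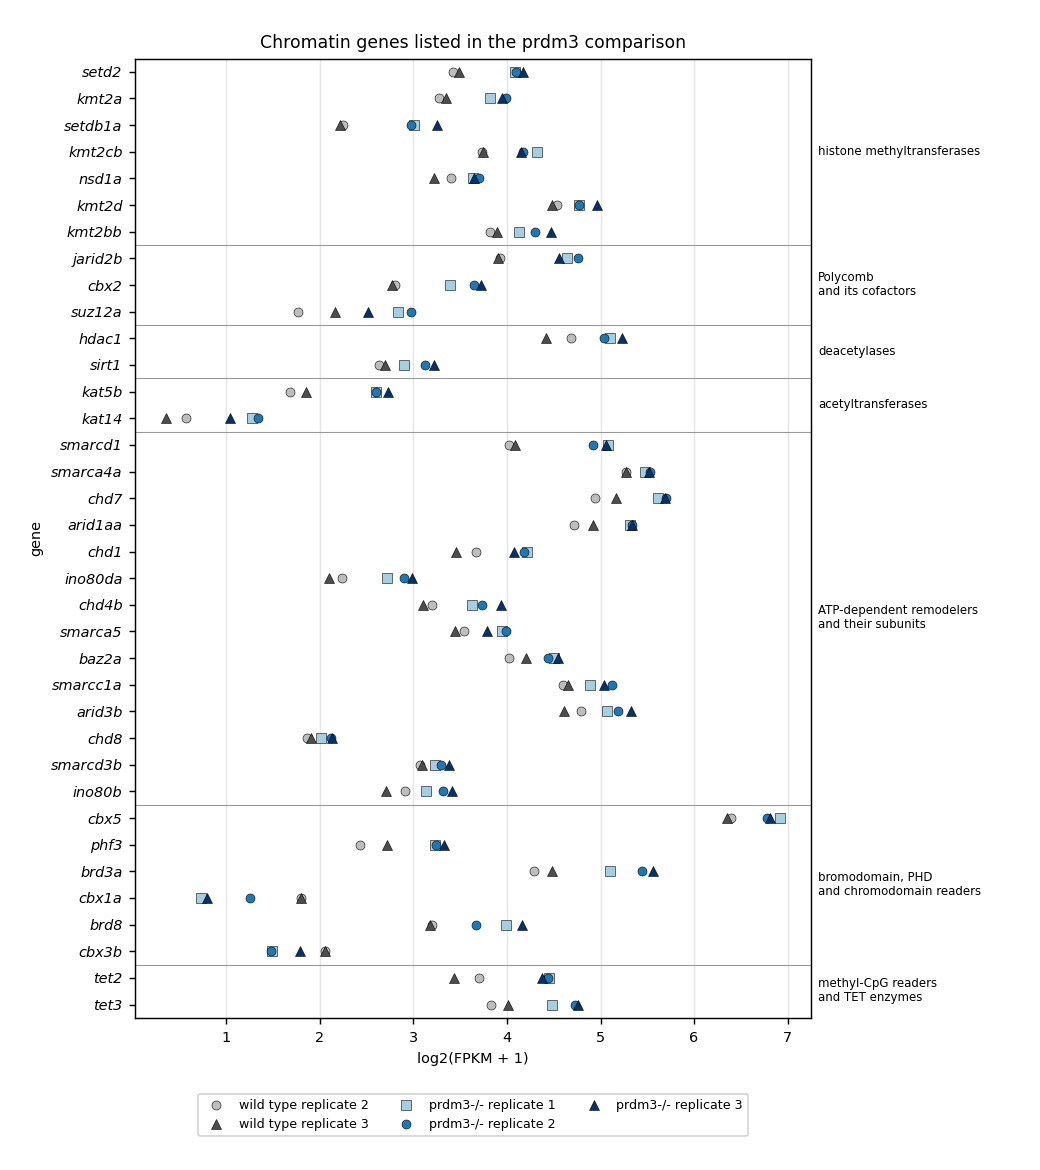
Level of 36 of the 38 chromatin genes of the prdm3 comparison (y axis, by role) in log2(FPKM + 1) (x axis), with 1 point per library, grey for wild type and blue for prdm3-/-. In every row the grey and blue points do not overlap, which holds for all listed genes, and cbx1a and cbx3b have the blue points to the left. After scaling to the listed genes, 22 of the 38 turned from higher to lower, and the median of all listed genes moved to 0.01.

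Prdm3-/- replicate 3 was the highest mutant library in 22 of the 38 chromatin genes (57.9%), and in 35.5% of all listed genes. For others it was the lowest mutant library, among them jarid2b, suz12a, kmt2cb, tet2, kat14, chd1 and smarca5. Leaving out this library left 34 of 38 chromatin genes at p below 0.05 in limma on the listed rows, against 35 with all libraries. These were 89.5% beside 93.7% of all listed genes, and 92.1% beside 96.8%. Every row was listed with this library included, so the counts cannot show whether the listing depends on it.

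In the prdm16 comparison most mutant values were 0. A value of 0 can be a failed estimate, so no fold is given for the 21 genes at 0 in both mutant libraries. For these genes p and q hold the spread of the wild type libraries only, since the mutant values do not vary. Their wild type means ran from 1.1 to 9.09 FPKM. Over all listed rows at 0 in both mutant libraries, these means ran from 0.995 to 3820 FPKM. A 0 was thus listed also for genes abundant in wild type. Another 4 of the 31 chromatin genes, baz1a, mbd3a, smarcb1a and smarcb1b, were above 0 in 1 mutant library. Above 0 in every library were 6 (19.4%), beside 4.28% of all listed rows. Of the 31, 12.9% were higher, beside 2.61% of all listed rows. All 31 kept their direction after scaling to the listed genes. Here that scaling rests on the 128 of 2990 rows above 0 in every library, 77 of them higher in prdm16-/-. It does not centre all listed rows, whose median moved from -1.98 to -2.39.

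The 6 genes with a value in every library were nsd1a, phf3, phf12a, phf14, cbx5 and chd9. The lysine 36 methyltransferase gene nsd1a stood at 11.1, 9.55 and 8.31 FPKM in wild type and at 18.1 and 23.2 FPKM in prdm16-/-. The mutant mean was 2.14-fold that of wild type. Scaling to the listed genes brought the difference of 1.02 (SE 0.19) to 0.06, with no call, whereas q was 0.0466 in the authors' deposited table.

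The largest increases were those of phf3, phf12a and phf14, which code for PHD finger proteins. The other listed phf genes, among them phf21aa and phf23b, were at 0 in both mutant libraries. The gene phf3, whose human product binds RNA polymerase II, stood at 7.87, 4.37 and 5.56 FPKM in wild type and at 40.4 and 23.7 FPKM in prdm16-/-. The mutant libraries differed widely from each other, and the means differed 5.40-fold. As in every listed row, the mutant and wild type values did not overlap. The difference of 2.24 (SE 0.39) had q = 0.0408 in the authors' deposited table and became 1.29 after scaling, with no call.

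A Sin3 complex gene, phf12a, stood at 5.98, 3.43 and 4.21 FPKM in wild type and at 15.1 and 22.6 FPKM in prdm16-/-. Of the 4 higher genes, this one alone kept p below 0.05 after scaling, with a difference of 1.84 (SE 0.32) before and 0.92 after. The level of phf14, which codes for another PHD protein, was 8.53, 7.89 and 7.64 FPKM in wild type and 29.5 and 19.4 FPKM in prdm16-/-. Its wild type libraries were close together and the means differed 3.05-fold, but after scaling its difference of 1.47 (SE 0.22) became 0.51, with no call.

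The HP1 gene cbx5 fell from 105, 82.9 and 80.4 FPKM in wild type to 18.4 and 28.5 FPKM in prdm16-/-. The mutant mean was 0.262 of that of wild type, the difference was -1.91 (SE 0.27), and scaling widened it to -2.91. The CHD helicase gene chd9 fell further, from 32.7, 17.4 and 16.2 FPKM in wild type to 0.346 and 0.0859 FPKM. Wild type replicate 1 stood far above the other wild type libraries. As in every listed row, none of the 3 overlapped the mutant libraries. The authors' deposited table gives chd9 q = 0.0167.

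Other HP1 genes were listed at 0 in both prdm16-/- libraries. These were cbx1b, at 5.27, 3.24 and 4.60 FPKM in wild type, and cbx3b, at 1.98, 3.15 and 3.14 FPKM. Of the 3 listed HP1 genes, cbx5 alone had values above 0 in prdm16-/-.

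All 4 listed Polycomb genes were at 0 in both prdm16-/- libraries, as were 84.9% of all listed rows. The catalytic PRC2 methyltransferase gene ezh2 stood at 6.85, 3.93 and 4.62 FPKM in wild type. The PRC2 cofactor gene jarid2a stood at 10.6, 5.99 and 5.57 FPKM, and the PRC1 gene cbx2 at 15.5, 5.97 and 5.84 FPKM. In these 3 genes wild type replicate 1 was the highest library, by the widest margin in cbx2. The gene asxl2, which codes for a cofactor of the histone H2A deubiquitinase, was even across wild type at 1.31, 1.43 and 1.21 FPKM. It had the smallest q of the 31, 0.00613 in the authors' deposited table. With both mutant values at 0, this q rests on the evenness of the wild type libraries alone.

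The other methyltransferases listed at 0 were kmt5ab and ehmt2. The gene kmt5ab, for the enzyme of histone H4 lysine 20 monomethylation, stood at 2.66, 1.89 and 1.37 FPKM in wild type. The lysine 9 methyltransferase gene ehmt2 (G9a) stood at 3.10, 1.63 and 1.68 FPKM. Deacetylases hdac8 and hdac3 were at 0 as well, from 1.79, 1.73 and 1.32 FPKM and from 1.11, 1.47 and 0.715 FPKM in wild type, and hdac3 had the lowest wild type mean of the 21 genes at 0. The acetyltransferase gene kat6b, of the MOZ and MORF family, was at 0 from 8.22, 5.75 and 5.06 FPKM.

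Of the 54 genes grouped as remodelers by symbol, 9 were listed for prdm16, beside 28.1% of all genes tested. All 9 were lower, and 5 of these were at 0. Over all listed rows 97.4% were lower and 84.9% were at 0 in both mutant libraries. INO80 complex genes made up 3 of the 5 remodelers at 0. The ATPase gene ino80 stood at 7.18, 6.74 and 5.03 FPKM in wild type, ino80b at 9.01, 6.52 and 5.53 FPKM, and ino80da at 5.74, 3.72 and 3.27 FPKM. In all 3 genes replicate 1 was the highest wild type library. Genes at 0 in both mutant libraries can be listed only where wild type lies above 0, and a 0 can be a failed estimate.

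The core BAF gene smarcb1 has 2 zebrafish copies, and both were listed. The level of smarcb1a was 5.46, 3.32 and 5.03 FPKM in wild type and 0.120 and 0 FPKM in prdm16-/-. The level of smarcb1b was 11.7, 5.29 and 6.12 FPKM in wild type and 0 and 0.207 FPKM. Each had a trace in 1 mutant library, not the same one. Another BAF core gene, smarcc1b, and the ISWI-associated gene baz1b were at 0 in both, while baz1a, of the ACF complex, had 0 and 0.352 FPKM.

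The readers gave 11 listed genes, of which 7 were at 0 in both mutant libraries, beside 84.9% of all listed rows. The gene phf21aa, whose mammalian product reads unmethylated lysine 4 in the LSD1 complex, stood at 4.87, 3.87 and 3.97 FPKM in wild type. The BET gene brd2b stood at 1.98, 2.60 and 2.09 FPKM and phf23b at 2.57, 3.64 and 3.32 FPKM. Wild type replicate 1 was the lowest library for both. The gene mbd3a, of the NuRD complex, had the highest wild type level of the 4 genes with 1 value above 0, at 20.5, 12.4 and 14.7 FPKM, and stood at 0.952 and 0 FPKM in prdm16-/-.

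**Figure D3:**
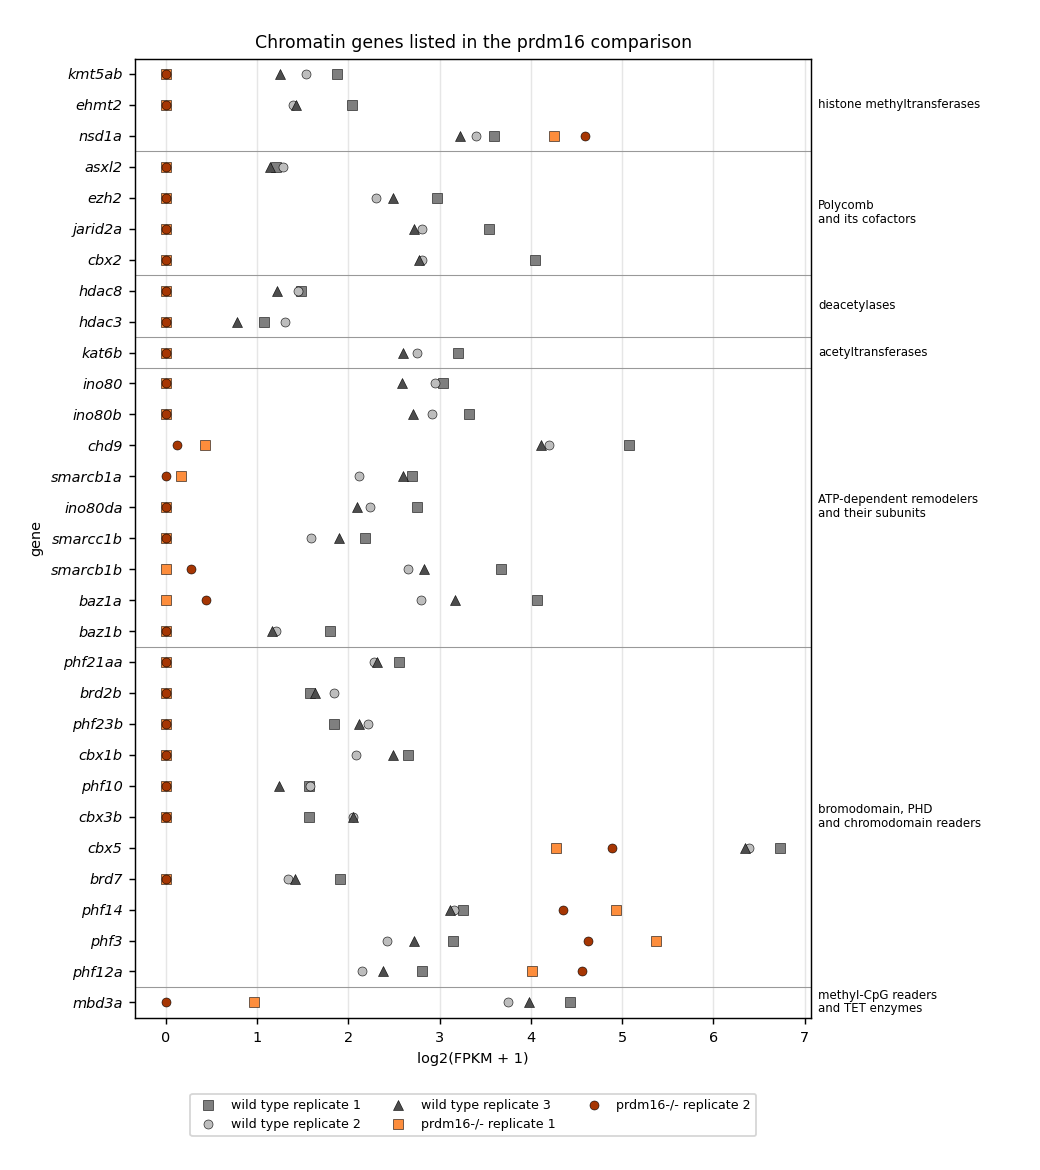
Level of the 31 chromatin genes of the prdm16 comparison (y axis, by role) in log2(FPKM + 1) (x axis), with 1 point per library, grey for wild type and orange or brown for prdm16-/-. In 21 rows both mutant points lie at 0, where they overlap, and in 4 rows (nsd1a, phf14, phf3 and phf12a) they lie to the right of wild type. Wild type replicate 1 (grey square) is the rightmost grey point in 25 rows.

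The 7 genes listed in both comparisons were cbx2 (ENSDARG00000044938), cbx3b (ENSDARG00000092158), cbx5 (ENSDARG00000061187), ino80b (ENSDARG00000062749), ino80da (ENSDARG00000104727), nsd1a (ENSDARG00000060016) and phf3 (ENSDARG00000034768). They share the wild type libraries, so the comparisons are not independent. For cbx2, ino80b, ino80da and cbx5, the prdm3-/- values were above wild type replicates 2 and 3. The prdm16-/- values of these genes were below all wild type libraries. After scaling, the prdm3 differences of cbx5 and ino80b were -0.30 and -0.20, that of ino80b with no call. The gene nsd1a had a mean of 11.7 ± 0.291 FPKM (SD, n = 3) in prdm3-/- and 20.6 ± 3.59 FPKM (SD, n = 2) in prdm16-/-, and both were above the wild type libraries, though after scaling the prdm3 difference was -0.35. The gene phf3 had 8.64 ± 0.373 FPKM (SD, n = 3) in prdm3-/- and 32.0 ± 11.8 FPKM (SD, n = 2) in prdm16-/-, while wild type replicate 1 stood at 7.87 FPKM. After scaling the prdm3 difference of phf3 was 0.03 and its prdm16 difference 1.29, both with no call. The gene cbx3b was below wild type replicates 2 and 3 in both mutants.

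**Figure D4:**
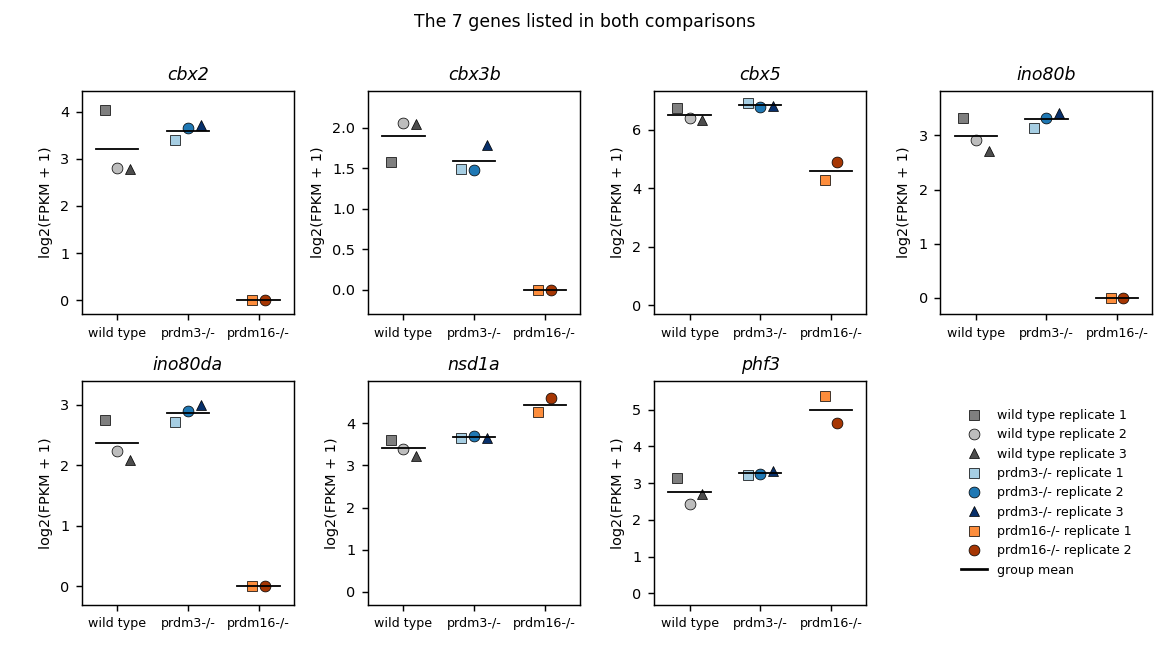
Level of the 7 genes listed in both comparisons, in log2(FPKM + 1) (y axis), by genotype (x axis), with 1 point per library and a bar at the mean of each group. The prdm16-/- libraries of cbx2, cbx3b, ino80b and ino80da lie at 0, and wild type replicate 1 (square) lies among or beyond the prdm3-/- values for the same 4 genes.

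Wild type replicate 1 entered the prdm16 comparison and not the prdm3 comparison. Its label carries the word "cleaned", as do those of prdm3-/- replicate 2 and both prdm16-/- libraries, and no source used here explains it. It was the highest wild type library in 25 of the 31 chromatin genes (80.6%), and in 50.9% of all listed rows. Its median distance above the mean of wild type replicates 2 and 3 was 0.48 on the log2 scale in the chromatin genes and 0.15 in all listed rows. The distance was above 0.5 in 15 of 31 chromatin genes (48.4%) and in 19.1% of all listed rows.

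**Figure D5:**
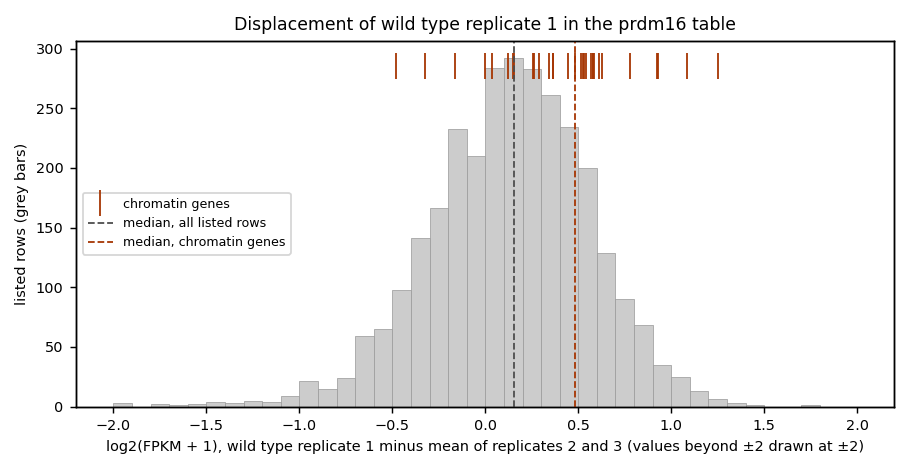
Number of listed rows (y axis) by the distance of wild type replicate 1 from the mean of replicates 2 and 3 in log2(FPKM + 1) (x axis), for all rows of the prdm16 table (grey bars) and for the 31 chromatin genes (brown marks). The median is 0.15 for all rows and 0.48 for the chromatin genes (dashed lines).

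With wild type replicate 1 added, from the prdm16 table, the two-sided equal-variance test gave p from 0.0545 to 0.423, so that 0 of 7 had p below 0.05, beside 217 of 339 genes (64.0%) listed in both tables. The 7 differences kept their direction, at 0.38 for cbx2, 0.35 for cbx5, 0.31 for ino80b, 0.51 for ino80da, 0.26 for nsd1a, 0.51 for phf3 and -0.31 for cbx3b. In 7 of 7 chromatin genes the library was displaced toward the prdm3-/- libraries, beside 72.9% of the 339. It reached the range of the mutants in cbx2, cbx3b, ino80b and ino80da, and beyond it for cbx2, where it stood at 15.5 FPKM and the highest prdm3-/- library at 12.2 FPKM. Its median share of the prdm3 difference was 83.3% in the 7 genes and 39.8% in the 339. Each of the 339 was listed for prdm3 without this library and for prdm16 with it, so the displacement and the lost calls carry that selection. The gap between the 7 genes and the 339 was not tested. For the 31 chromatin genes listed only in the prdm3 table, the value of this library is not held. With wild type replicates 2 and 3 alone, the equal-variance test of the prdm16 comparison gave p below 0.05 in 30 of 31 chromatin genes. The share of all listed rows was 98.0%. In limma on the same libraries it was 31 of 31, beside 100% of all listed rows. The equal-variance tests with other wild type libraries were chosen after seeing the data.

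The chromatin genes outside these family names were taken from a list of 134 companions, such as DNA methyltransferases and scaffold subunits. For prdm3, 28 of the 134 were listed, beside 13.5% of all genes tested, and whether all 134 were tested is not known. All 28 were higher, with a median difference of 0.63, beside 94.2% higher and a median of 0.62 over all listed genes. After scaling to the listed genes 12 stayed higher, and the median of all listed genes was 0.01. The 6 with the smallest p were dnmt3ba, dnmt1, mtf2, trim33, uhrf1 and sin3b. The maintenance methyltransferase gene dnmt1 stood at 8.35 and 9.05 FPKM in wild type and at 15.7, 16.6 and 17.7 FPKM in prdm3-/-, and its partner uhrf1 at 10.4 and 11.2 FPKM and at 18.3, 19.6 and 21.4 FPKM. The de novo methyltransferase gene dnmt3ba stood at 5.67 and 5.72 FPKM in wild type and at 10.1, 10.2 and 10.1 FPKM, and was the only one of the 28 below q of 0.05.

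For prdm16, 20 companions were listed, beside 28.1% of all genes tested. Over all listed rows 97.4% were lower and 84.9% were at 0 in both mutant libraries. Of the 20 companions, 19 were lower, 14 of them at 0, and 1 was higher. The higher one was dnmt3ba, at 5.17, 5.67 and 5.72 FPKM in wild type and 8.44 and 7.46 FPKM in prdm16-/-, a difference of 0.46 (SE 0.08) that did not stay above 0 after scaling. The 6 with the smallest p were epc1a, rbbp5, mta1, epc2, bap1 and msl2a. The KMT2 scaffold gene rbbp5 was at 0 in both mutant libraries, from 7.04, 7.84 and 8.63 FPKM in wild type, and the NuRD gene mta1 fell from 11.8, 9.17 and 11.5 FPKM to 0.133 and 0 FPKM. Wild type replicate 1 was the highest wild type library in 12 of these 20, with a median distance of 0.24, beside 50.9% and 0.15 for all listed rows.

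The label of cranial neural crest was read from a list of 16 markers, of which 4 were listed for prdm3, all higher (nr2f2, msx1b, hand2 and prrx1a), and 3 for prdm16, all lower (foxd3, msx1b and barx1). The markers sox10, crestin, dlx2a and twist1a were not listed, and the tables hold no value for unlisted genes, so the label could be checked only in part. Of the markers of other cells, the pigment genes tyrp1b and dct stood at a summed 6.53 to 14.8 FPKM in wild type and 24.7 to 32.9 FPKM in prdm3-/-, the only 2 of 9 listed. The glial gene sox2, the otic gene oc90 and the epidermal gene krt91 were also listed higher, and 2 lens genes, 1 muscle gene and 1 neuronal gene lower. For prdm16 the blood gene hbbe1.1 and the neuronal gene isl1 were at 0 in both mutant libraries. Endothelial and cartilage markers were listed in neither table. The part of these cells in the levels of the chromatin genes was not tested.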

How the data were processed

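For each mutant the authors deposited an RNA table of listed genes, and its columns hold library levels, a p-value and its q-value. The tables do not name the unit. The deposited levels were taken as FPKM because they are not whole and the submitters' processing notes name Cufflinks. Those notes also name, with no roles, the build danRer11 and TopHat2 2.1.1, Genrich, bedtools 2.30.0, cutadapt and Bowtie2 2.4.4. An equal-variance test, two-sided, of the log2(FPKM + 1) levels gave the authors' p-value within 1% in every row. How many genes were tested was worked out from p and q, using p above 0.001. No column of per-sample values was left unused (0). The deposited peak files were not used here, since no danRer11 gene positions were at hand, and no sequences are printed.

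The chromatin genes, roles and lists were chosen with earlier results of these data known. Named genes are those in both tables, the 4 with the smallest p of each of 8 roles and table, those against the main direction, those above 0 in both prdm16-/- libraries, and 6 companions per table; others are given by range, except chd8, smarcb1b and baz1a, chosen after their values were seen. A few members enter the counts and are not reported by name here. Because the tables hold only genes past a threshold, no model over all genes was fitted. limma 3.58.1 in R 4.3.3 on the listed rows, with a prior from rows already selected, was an alternative. Its run on simulated data used all simulated rows, so that run cannot show how a prior from selected rows behaves. Other alternatives were a pseudocount of 0.1 in place of 1, a higher group mean of 5, values above 0 in every library, scaling to the listed genes, a replicate block and leaving out each library. Close paralogs can share reads.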

Additional observations from a re-analysis of the deposited data

How the results depend on the processing

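The number of chromatin genes at p below 0.05 was 38 in the prdm3 comparison and 31 in the prdm16 comparison. In limma on the listed rows it was 35 (92.1%, beside 96.8% of all listed rows) and 31 (100%, as for all listed rows). With the replicate block it was 34 (89.5%, beside 93.1%) and 31 (100%, beside 99.9%). Leaving out each prdm3-/- library in turn gave 34 to 35, or 89.5% to 92.1%, beside 93.7% to 95.4% of all listed rows. Leaving out each wild type library of the prdm16 comparison gave 31, with 100% of all listed rows. Every row was listed with these libraries included, so such counts cannot show whether the listing depends on a library. Leaving out a wild type library for prdm3, or a mutant library for prdm16, leaves 1 in that group. Its spread is taken from the other group, and no count is given. The block used the replicate number of the sample titles. The correlation of the deviations of same-numbered libraries was -0.05 and -0.04 for prdm3 and 0.01 and -0.11 for prdm16. Deviations in a group of 2 libraries mirror each other, and only listed rows above 0 in every library were used. These values therefore cannot tell whether same-numbered libraries share more than a number. The descriptions of the samples carry other numbers. Within a line these join wild type replicate 2 to prdm3-/- replicate 3, with a correlation of 0.04, and the block did not use them. Scaling to the listed genes gave 13 for prdm3 (34.2%, beside 21.9% of all listed rows), 3 in the same direction and 10 reversed. It moved the lower genes cbx1a and cbx3b, among the 3, further from 0, so these could not turn. It reversed 22 of the 38 in all, among the genes named by the rule setd2 (-0.054), smarca4a (-0.52), kmt2a (-0.10), cbx5 (-0.30), kmt2cb (-0.25), chd7 (-0.14), arid1aa (-0.24), nsd1a (-0.35), hdac1 (-0.18), ino80b (-0.20) and sirt1 (-0.25). In the prdm3 comparison this scaling centres a selected set by construction, and how many of all its listed rows reversed was not counted. In the prdm16 comparison it rests on 128 of 2990 rows, 77 of them higher, and does not centre the listed rows. There it moved the median of all rows from -1.98 to -2.39 and that of the chromatin genes to -2.46. Of the 31 prdm16 genes, 15 had a higher group mean of 5 or more. Above 0 in every library were 6 (19.4%), beside 4.28% of all listed rows. With wild type replicate 1 added, which was chosen after seeing the data, 0 of the 7 shared genes had p below 0.05 for prdm3. The share was 64.0% of the 339 genes listed in both tables, all of them listed for prdm3 without this library. The planned counts of promoter peaks were not run. The depth of the libraries is unknown, so the level at which a value of 0 would be expected is not known either.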
